A study of Cyprinus carpio with 9 samples.

Results

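The subject is a set of 35 genes of the common carp (Cyprinus carpio) liver, out of 42997 listed, that stood higher in 2 of the 3 liver libraries from fish given earthworm and duckweed together than in every library from fish given either food alone. The other library of the mixed diet was not used to choose them, and it did not show the same pattern in most of them. The data were messenger RNA profiles of adult livers, 3 libraries on earthworm, 3 on duckweed and 3 on a 1:1 mixture of both, from fish of 492.6 ± 30 g in groups of 90, sampled after a fast of 24 h. No strain, sex or age is given beyond the adult stage, and neither is how many fish stand behind a library, so a p-value here speaks of the spread among the libraries, technical spread included. Earthworm is an animal food and duckweed a small floating water plant.

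The liver takes up what the gut absorbs and makes, stores or breaks down sugars, fats and amino acids, and many of its transcripts follow the food. The common carp is an omnivore that eats both animal and plant matter. A gene that is higher on a mixture than on either ingredient lies outside the range of the ingredients given alone.

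The files give each gene by an ID alone. A RefSeq table of the species held 0 of the 42997 IDs, so neither names nor roles can be given to the members, and no pathway, marker of a cell type or sequence is shown for them. In bulk liver RNA, more cells of a type and more RNA per cell cannot be told apart.

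Values are scaled FPKM, a level per length of the gene and per size of the library. Each library's FPKM was divided by its median over 11584 genes at 1 FPKM or more in 8 libraries, relative to the mean of those medians. The factors ran from 0.771 to 1.18 in the 8 libraries and reached 1.90 in mixed-diet library 3. Members were selected on measured levels, as the genes whose lower value in mixed-diet libraries 1 and 2 was at least 3 scaled FPKM and at least 1.5 times the highest of the 6 single-diet libraries. Genes among the 100 most abundant, and genes whose single diets differed 2-fold without overlap, were left out. Mixed-diet library 3 took no part. The values in mixed-diet libraries 1 and 2 against the single diets therefore chose the members and are given as a description, without a test.

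Mixed-diet library 3 stood apart from the rest, to a degree that puts its label in doubt. It is called here by that label, and whether it holds the labelled tissue and diet was not tested. Across 21239 genes it correlated at 0.441 to 0.512 with the remaining libraries, and these correlated at 0.854 to 0.942 among themselves. The 100 genes most abundant in the 8 libraries took 3.98% of its reads and between 43.2% and 56.7% of those of the others. Pairs among the 8 were also checked, by genes at 5 scaled FPKM or more in a first library. These had to be 5 times any of 6 others, with the second library of the pair left free. With earthworm library 1 first and earthworm library 2 second there were 25, whose level in the second was 0.291 of the first at the median. With duckweed library 3 first and duckweed library 2 second there were 48, at 0.285, and the next pair came to 0.172. Since the second library was left free, these are not counts of genes particular to 1 library. Library totals lay between 9915585 and 11883466 reads.

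The level criterion was met by 7902 genes, of which 530 (6.71%) had both mixed-diet libraries above all 6 single-diet ones and 39 (0.494%) were at least 1.5 times the highest of them. None of the 39 was among the 100 most abundant genes, and 4 fell away because earthworm and duckweed differed. The mirror of the rule, with both mixed-diet libraries below the single diets, held 51 genes.

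The 4 genes that fell away were CAFS_CommonC_G_047194, CAFS_CommonC_G_054592, CAFS_CommonC_G_056542 and CAFS_CommonC_G_076909. In the first, duckweed was the higher single diet, at a mean of 20.3 scaled FPKM against 7.28 on earthworm. In the other three, earthworm was the higher. These genes too exceeded both diets in mixed-diet libraries 1 and 2, by ratios of 1.63 to 3.06, and would bring the set to 39.

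The ratio of the lower mixed-diet library to the highest single-diet library had a median of 1.69 over the 35 members. It was 2 or more in 7 members, 2.5 or more in 2, and 5 or more in 1. On the scale of log2(scaled FPKM + 1), where low genes appear to change less than they do, the mean of mixed-diet libraries 1 and 2 lay above the single diets by a median of 1.22, from 0.61 to 4.66. The distance was 1.17 from earthworm and 1.13 from duckweed at the median. Both distances use the same 2 mixed-diet libraries.

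**Figure D1:**
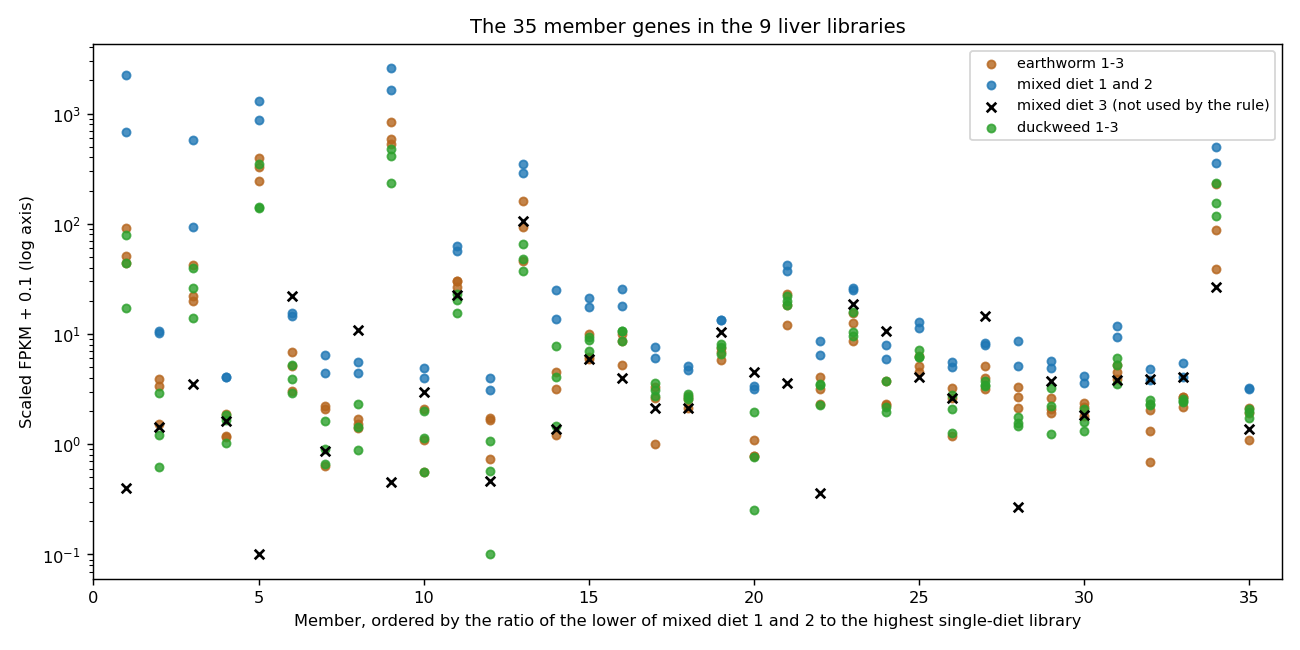
Scaled FPKM plus 0.1 (log axis) of each of the 35 members in each of the 9 libraries, one column of points per member, ordered by the ratio that chose them. In every column both blue points lie above the brown and green ones, as the rule requires, while the crosses of mixed-diet library 3 lie above all single-diet points in 11 members, below all of them in 10 and among them in 14.

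The members covered a wide range of levels. By the lower of the 2 mixed-diet values, 7 stood at 50 scaled FPKM or more, 9 between 10 and 50, and 19 below 10. Over the 35 members this lower value had a median of 7.85 and a highest of 1641 scaled FPKM. The median ratio was 1.96 in the first tier, 1.71 in the second and 1.61 in the third.

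The largest ratio was that of CAFS_CommonC_G_090852. It stood at 685 and 2256 scaled FPKM in mixed-diet libraries 1 and 2. On earthworm it stood at 91.6, 51.2 and 44.0 in libraries 1 to 3, a mean of 62.3 ± 25.7 (SD, n = 3). On duckweed it stood at 79.3, 17.0 and 44.1, a mean of 46.8 ± 31.2 (SD, n = 3). The single diets thus overlapped, and both mixed-diet libraries were far above them. The lower mixed-diet value was 7.48 times the highest single-diet one, with an exact 95% interval from the reads of 6.52 to 8.60, counting error only. The mixed-diet libraries differed from each other 3.29-fold. In mixed-diet library 3 the gene had 2 reads, or 0.30 scaled FPKM, below every single-diet library.

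The second largest ratio, 2.62 (interval 2.10 to 3.30), was that of CAFS_CommonC_G_046094. It stood at 10.6 and 10.1 scaled FPKM in mixed-diet libraries 1 and 2, which were close to each other. On earthworm it was at 3.84, 3.27 and 1.43 and on duckweed at 0.52, 1.12 and 2.83. The single diets again overlapped, and mixed-diet library 3, at 1.34, lay among them.

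The most abundant member was CAFS_CommonC_G_090853, at 1641 and 2576 scaled FPKM in mixed-diet libraries 1 and 2. It stood at 837, 592 and 531 on earthworm and at 237, 476 and 408 on duckweed, so that all earthworm libraries lay above all duckweed ones. Its ratio was 1.96 (interval 1.89 to 2.04). In mixed-diet library 3 it had 4 reads, or 0.36 scaled FPKM.

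The next most abundant, CAFS_CommonC_G_055023, stood at 1291 and 872 scaled FPKM in mixed-diet libraries 1 and 2. Its earthworm values were 399, 243 and 325, and its duckweed values 140.5, 350.5 and 141, which overlap. The ratio was 2.19 (interval 2.01 to 2.38). In mixed-diet library 3 it had 0 reads. A count of 0 allows up to 3 reads in that library, or 0.603 scaled FPKM for this gene of 246 bases. At that library's factor of 1.90, this places the gene at least 442-fold lower than the mean of the single-diet libraries. The bound depends on that factor and is smaller in FPKM as deposited.

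CAFS_CommonC_G_090852 and CAFS_CommonC_G_090853 bear consecutive IDs, the only such pair among the members. They were singled out after their values were seen, and the files do not say whether numbers follow the order of genes in the genome or whether these 2 are copies of each other. Their lengths, recovered from the values, were 327 and 554 bases. If they share reads, how the reads were split is uncertain, so the sum was also taken. The sum stood at 2326 and 4833 scaled FPKM in mixed-diet libraries 1 and 2, against 715 ± 188 (SD, n = 3) on earthworm and 420.4 ± 92.6 (SD, n = 3) on duckweed, and the lower mixed-diet value was 2.51 times the highest single-diet one.

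The part of that sum held by CAFS_CommonC_G_090852 differed between libraries. It was 29.5% and 46.7% in mixed-diet libraries 1 and 2. It was 9.87%, 7.97% and 7.66% on earthworm, and 25.1%, 3.44% and 9.74% on duckweed. The mixed-diet libraries had the 2 highest parts among the 8, and duckweed library 1 came next. Over the 6 single-diet libraries the pair correlated at 0.03 (Pearson, log2 scale, a description with 6 libraries). Of the 39 IDs directly before or after a member's, 9 met the level of 3 scaled FPKM. In 2 of the 9 both mixed-diet libraries exceeded all single-diet ones, as in 6.71% of the 7902 genes at that level. Those 2 were this pair, each counted as the neighbour of the other. The rule had fixed their result, so the count is no evidence about neighbouring IDs.

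The 35 members together held 0.304% of the reads of mixed-diet library 1 (exact 95% interval 0.301 to 0.307%) and 0.363% of those of library 2 (0.359 to 0.366%). On earthworm they held 0.0831% ± 0.00693 (SD, n = 3) and on duckweed 0.0771% ± 0.0060 (SD, n = 3). Without the pair the remaining 33 held 0.203% and 0.145% in mixed-diet libraries 1 and 2, against 0.0482% ± 0.0042 (SD, n = 3) and 0.0529% ± 0.0079 (SD, n = 3). In mixed-diet library 3 the 35 held 0.0946% (interval 0.0928 to 0.0965%), of which the pair gave 6 reads. These shares are not scaled. The scaling factor of mixed-diet library 3 was 1.90, against 0.771 to 1.18 elsewhere, so its share cannot be read as level with the single diets.

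**Figure D2:**
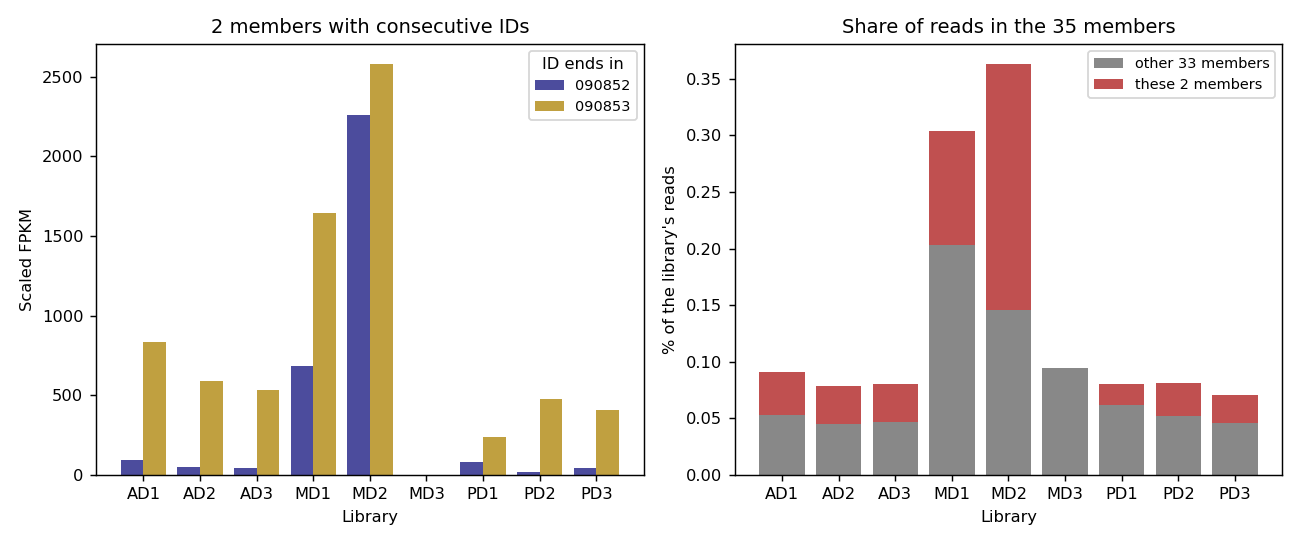
Left, scaled FPKM of the 2 members with consecutive IDs in each library (AD earthworm, MD mixed diet, PD duckweed); right, the percentage of each library's reads held by the 35 members, with those of the pair in red. Both members peak in MD2 and are near 0 in MD3. The members' share, which is not scaled, is between 0.0702% and 0.0946% in all libraries other than MD1 and MD2. MD3 had a scaling factor of 1.90, so its share is not on the level of the others.

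In 3 of the other abundant members mixed-diet libraries 1 and 2 differed less than 1.5-fold. They differed 1.21-fold in CAFS_CommonC_G_068996, 1.40-fold in CAFS_CommonC_G_052973 and 1.10-fold in CAFS_CommonC_G_021390. CAFS_CommonC_G_025412, singled out after its values were seen, stood at 573 scaled FPKM in mixed-diet library 1 and 94.4 in library 2, the largest difference in the set, 6.07-fold. Its single-diet values were 19.8, 42.3 and 22.1 on earthworm and 39.4, 14.0 and 26.2 on duckweed. Both mixed-diet values thus lay above all 6, with a ratio of 2.23 (interval 2.0 to 2.48).

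Mixed-diet libraries 1 and 2 differed more than 1.5-fold in 5 of the 35 members. Those 5 were CAFS_CommonC_G_090852, CAFS_CommonC_G_025412, CAFS_CommonC_G_090853, CAFS_CommonC_G_030524 and CAFS_CommonC_G_018429. Library 1 was the higher in 19 members and library 2 in 16. The higher of the 2 libraries exceeded the lower by a median of 25.1% in the members and 28.5% over the 7902 genes at the same level. The highest single-diet library was a median of 2.39 times the lowest in the 34 members above 0 throughout, and 2.37 times over 7876 genes at that level.

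The member just inside the fold threshold, CAFS_CommonC_G_011773, had a ratio of 1.5. It stood at 3.16 and 3.04 scaled FPKM in mixed-diet libraries 1 and 2, with 1.00, 2.03 and 1.81 on earthworm and 1.86, 1.99 and 1.62 on duckweed. The gene just outside, CAFS_CommonC_G_047150, had a ratio of 1.49. It stood at 3.17 and 3.16 in the mixed-diet libraries, with 1.65, 2.02 and 2.13 on earthworm and 2.09, 2.09 and 0.93 on duckweed. The 2 genes lay at nearly the same level in the mixed-diet libraries, and both had overlapping single diets.

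Reads set the counting error of each ratio, and the spread between libraries comes on top of it. The lower mixed-diet library held a median of 172 reads per member, from 18 to 9202, and 9 members had under 100. The exact interval of the ratio lay wholly above 1 in 30 members and wholly above 1.5 in 10. In the tier at 50 scaled FPKM or more, 6 of 7 intervals lay above 1.5. Between 10 and 50 it was 2 of 9, and below 10 it was 2 of 19. The 5 intervals that reached 1 belonged to CAFS_CommonC_G_030300, CAFS_CommonC_G_000019, CAFS_CommonC_G_018429, CAFS_CommonC_G_024445 and CAFS_CommonC_G_011773. In each of these 5 the lower mixed-diet library had under 100 reads. The intervals cover counting error only, and the choice of the highest and lowest libraries is not part of them. The rule had required a ratio of at least 1.5 in these same libraries. The counts of intervals therefore describe the depth of reads and do not test the ratios.

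**Figure D3:**
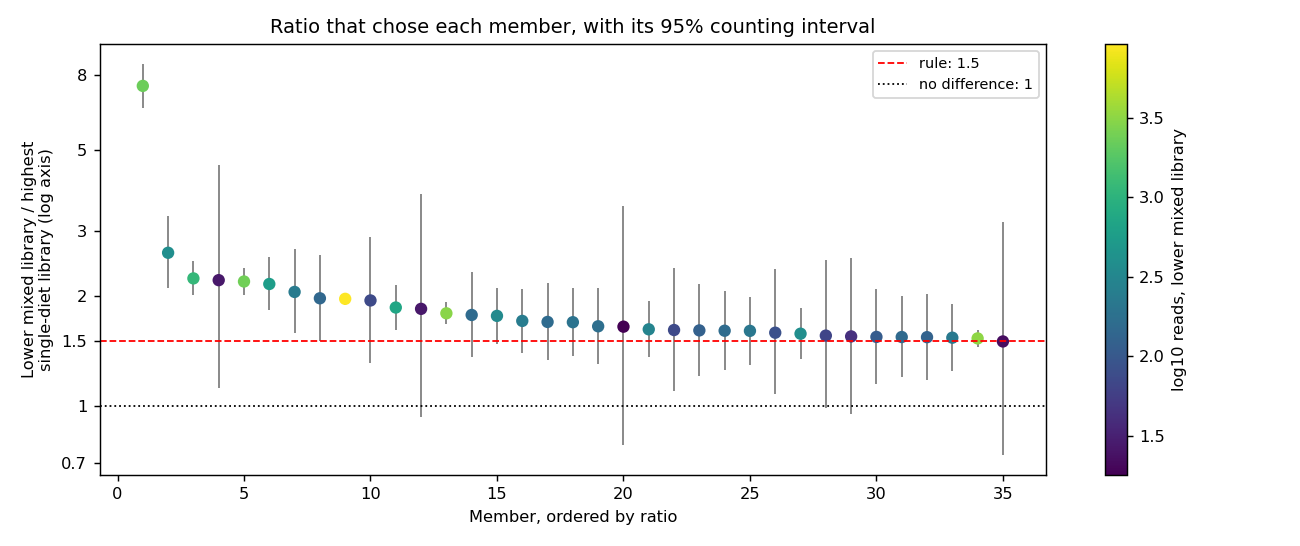
Ratio of the lower of mixed-diet libraries 1 and 2 to the highest single-diet library (log axis) for the 35 members, with exact 95% counting intervals as bars and the reads of the lower mixed-diet library as colour. Members with few reads (dark) have wide intervals, 5 of which reach 1, and only 10 of the 35 lie wholly above the dashed line at 1.5.

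Which genes entered the set depended on scaling and on single libraries. In FPKM as deposited 23 genes met the rule, 18 of them members. With factors from trimmed means of M values (TMM) there were 40, 30 of them members. In all, 17 members remained under each of the 3 other scalings. The set grew to 354 genes when mixed-diet library 1 was left out and to 307 when library 2 was, since 1 library then had to exceed the rest. It grew to 54 without earthworm library 1 and to 83 without duckweed library 3.

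Of the 35, 24 remained members whichever of the 6 single-diet libraries was left out, and 11 remained under those and the other scalings. CAFS_CommonC_G_090852 remained under every scaling but was lost without duckweed library 1. After the rescaling that goes with leaving a library out, its lowest earthworm value was 42.918 and its highest duckweed value 42.909, so that the single diets counted as differing 2-fold without overlap. CAFS_CommonC_G_090853 and CAFS_CommonC_G_055023 were lost without duckweed library 2, when their earthworm means were 2.02 and 2.29 times their duckweed means, without overlap. CAFS_CommonC_G_046094 remained under every scaling but was lost without earthworm library 3 and without duckweed library 3. It remained in both cases when the single diets were allowed to differ. When the single diets were allowed to differ, 32 of the 35 remained whichever single-diet library was left out.

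The rule set no bound on length, but FPKM divides reads by length, so the members' lengths are not independent of the rule. The members' gene models had a median length of 1178 bases, from 246 to 5517, against 1820 bases over the 7902 genes at the same level. By tier the median was 814 bases in the 7 members at 50 scaled FPKM or more, 1225 in the next 9 and 1711 in the 19 below 10. Lengths over all genes of the same tiers are not given here, so the tier medians cannot be read as a trait of the members. The lengths were recovered from the steps of the values and no test was made.

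The members did not share a single order among the single diets. The highest single-diet library was an earthworm one in 22 members (62.9%, against 52.7% of the 7902 genes) and a duckweed one in 13. It was earthworm library 1 in 28.6% of the members and 24.3% of those genes, library 2 in 20% and 14.8%, and library 3 in 14.3% and 13.6%. It was duckweed library 1 in 17.1% and 16.98%, library 2 in 5.71% and 5.28%, and library 3 in 14.3% and 25.04%. Duckweed library 3 was thus less often the highest in the members than in those genes, and this difference was not tested. The rule used the highest single-diet value to choose the members. These shares were therefore partly set by it and cannot be read as a trait of the members. Over the 595 pairs of members, the median correlation across the 6 single-diet libraries was -0.05 (middle 50% from -0.38 to 0.31), given as a description, since all pairs share the same libraries.

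The members were next compared between the single diets. The mean on earthworm was above that on duckweed in 20 members and below it in 15, and the median difference on the log2 scale was -0.04. All 3 earthworm libraries lay above all 3 duckweed libraries in 3 of the 35 members, and in 5.09% of 20105 genes tested. The 3 members were CAFS_CommonC_G_090853, CAFS_CommonC_G_021390 and CAFS_CommonC_G_018429. The reverse held in 1 of the 35, CAFS_CommonC_G_036945, and in 3.95% of genes tested. The rule had removed genes that differed 2-fold without overlap, so both counts were partly set by it.

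CAFS_CommonC_G_021390 averaged 29.0 ± 2.22 scaled FPKM (SD, n = 3) on earthworm and 19.6 ± 3.74 (SD, n = 3) on duckweed, and stood at 62.5 and 56.6 in mixed-diet libraries 1 and 2. CAFS_CommonC_G_036945 stood at 0.59, 1.93 and 1.23 on earthworm and at 2.41, 2.16 and 2.22 on duckweed, and stood at 4.71 and 3.72 in the mixed-diet libraries. Their differences of duckweed from earthworm were -0.56 (SE 0.27) and 0.58 (SE 0.26) on the log2 scale, each at an adjusted p of 0.9989 in the fit across all genes (limma with Benjamini-Hochberg adjustment).

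In that fit 0 of the 35 members were called (0.00% of 20105 genes in either direction, limma, 8 libraries), and 1 member, CAFS_CommonC_G_090853, had an unadjusted p under 0.05, against 4.80% of genes. With limma-voom on reads recovered from the values, 0 members were called, as were 0 of 20105 genes. In that fit 2 members had an unadjusted p under 0.05, against 393 genes higher and 464 lower of the 20105. The rule had removed genes with a 2-fold difference without overlap, so a low count was partly set by it.

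Mixed-diet library 3 carries the label of the same diet and had no part in the rule. Since it differed from the other 8 across most abundant genes, its values describe this library and cannot stand for the diet. It stood above all 6 single-diet libraries in 11 of 35 members (31.4%), where 36.0% of 21239 genes tested did so. It stood below all 6 in 10 members (28.6%), where 21.8% of genes did. Among genes at the members' level of 3 scaled FPKM or more, the shares were 26.0% above and 37.0% below. The members' counts thus lay near the background in both directions. In 7 members (20%) mixed-diet library 3 was at least 1.5 times the highest single-diet library, as it was in 20.8% of genes tested and 12.5% of genes at the members' level. Requiring it there leaves a set of 7.

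The direction went with the level. None of the 7 members at 50 scaled FPKM or more stood above the single diets in mixed-diet library 3, and 5 stood below all of them. Of all 760 genes at that level, 3.95% stood above and 81.1% below. Of the 28 less abundant members, 11 stood above, 5 below and 12 among the single-diet libraries. Of the 7142 genes at that level, 28.3% stood above and 32.3% below. The 100 most abundant genes of the liver, none of them members, had a median of 0.00112 of their mean single-diet value in this library, and 98 stood below every single-diet library. The part of this in the members' values was not tested.

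In the fit across all genes, which set mixed-diet library 3 against the mean of earthworm and duckweed, 5 of the 35 members were called higher (14.3% of 21239 genes) and 6 lower (7.63%) at an adjusted p under 0.05 (limma with Benjamini-Hochberg adjustment). The members' share was 14.3% for the higher calls, equal to that of all genes, and 17.1% for the lower calls. As a lone library it was assumed to vary like the other groups, and each p speaks of this library and not of the diet. The median difference was -0.22 over the members and 0.15 over all genes. In mixed-diet library 3, 37.0% of genes at the members' level lay below all single-diet libraries, against 21.8% of genes tested. Calls and median over genes at the members' level are not given here. The gaps between members and all genes thus cannot be read as a trait of the members. The filter of 1 FPKM in at least 3 libraries was passed by 34 members on the single diets alone. The other, CAFS_CommonC_G_000019, passed only through the mixed-diet libraries where it was high, so its call among the 5 is no evidence, and 4 higher calls remain without it.

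The 4 were CAFS_CommonC_G_066795, CAFS_CommonC_G_080307, CAFS_CommonC_G_064620 and CAFS_CommonC_G_070073. In each of them all 3 mixed-diet libraries lay above all 6 single-diet libraries. For the mixed-diet libraries that chose the members, the rule had fixed this in all 35. Mixed-diet library 3 lay above all 6 in 11 members (31.4%), against 36.0% of genes tested, so the order is no evidence of a shared response.

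CAFS_CommonC_G_066795 stood at 10.9 scaled FPKM in mixed-diet library 3 and at 5.44 and 4.34 in libraries 1 and 2. It stood at 1.60, 1.32 and 1.41 on earthworm and at 2.21, 1.32 and 0.79 on duckweed. Its difference of mixed-diet library 3 from the single diets was 2.30 (SE 0.34) on the log2 scale. CAFS_CommonC_G_080307 stood at 21.8, against 14.6 and 15.3 in mixed-diet libraries 1 and 2. Its values were 6.78, 5.08 and 2.92 on earthworm and 3.79, 2.79 and 5.14 on duckweed, and the difference was 2.12 (SE 0.42).

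CAFS_CommonC_G_064620 stood at 14.4 scaled FPKM in mixed-diet library 3, against 7.85 and 8.21 in libraries 1 and 2 and at most 4.98 on a single diet. CAFS_CommonC_G_070073 stood at 10.6, against 7.78 and 5.85 and at most 3.64. In these 4 members mixed-diet library 3 was the highest of the 9 libraries.

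The 2 members with the most negative difference were CAFS_CommonC_G_090853, at -8.47 (SE 0.46), and CAFS_CommonC_G_055023, at -7.95 (SE 0.53). Also called lower were CAFS_CommonC_G_090852, CAFS_CommonC_G_080245, CAFS_CommonC_G_011921 and CAFS_CommonC_G_018429. The first of these was at -5.24 in limma (adjusted p = 0.00168) and at -6.99 in limma-voom (adjusted p = 0.0797), with Benjamini-Hochberg adjustment in both. The sizes of CAFS_CommonC_G_090853, CAFS_CommonC_G_055023 and CAFS_CommonC_G_090852 depend on the pseudocount, since the library held 4, 0 and 2 reads of them. That of the last was -6.90 with a pseudocount of 0.1. CAFS_CommonC_G_080245 stood at 3.52 scaled FPKM in mixed-diet library 3, against 37.3 and 42.5 in libraries 1 and 2 and between 12.0 and 23.0 on the single diets.

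**Figure D4:**
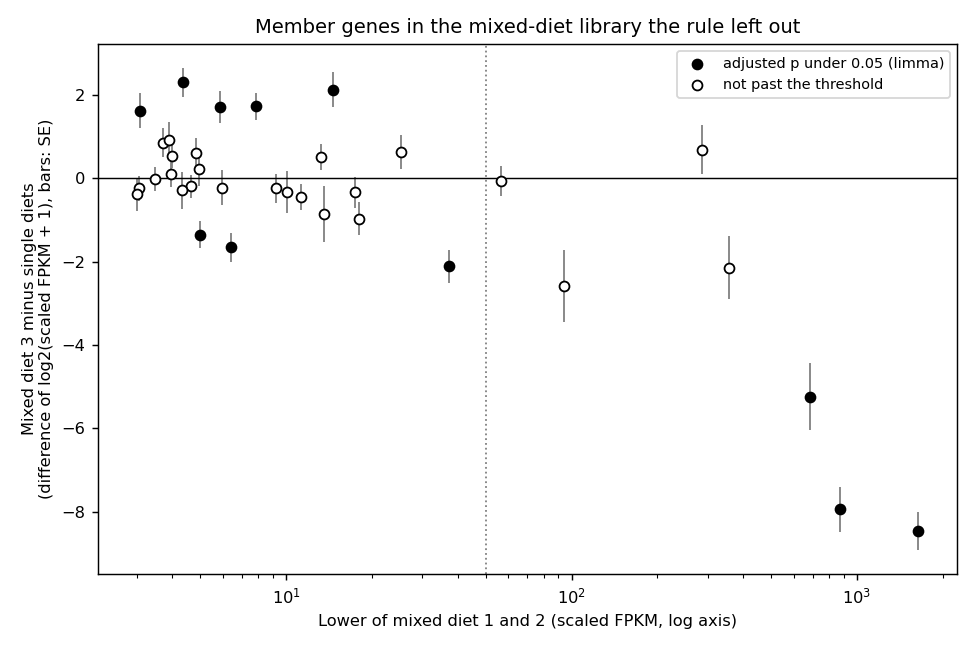
Difference of mixed-diet library 3 from the single diets, on the scale of log2(scaled FPKM + 1) with SE bars, against the lower of mixed-diet libraries 1 and 2 (log axis), for the 35 members. Filled points passed an adjusted p of 0.05, 5 above 0 and 6 below; the 3 most abundant members lie lowest, at -5.24 to -8.47, sizes that depend on the pseudocount since they had 0 to 4 reads, and the dotted line marks 50 scaled FPKM.

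The counts in mixed-diet library 3 moved with its scaling. In FPKM as deposited 21 members stood above the single diets (61.2% of genes tested), 12 were called higher (36.9% of genes, limma) and 6 lower (5.60%), and the median difference of all genes rose to 0.84. With TMM factors 16 members stood below (32.6% of genes), 4 were called higher (7.75%) and 8 lower (9.98%), and that median was -0.17. With 1 FPKM required in every library, 19 members were tested, of which 3 were called higher (13.9% of 11002 genes) and 1 lower (10.5%). That filter takes out members near 0 in mixed-diet library 3 by construction, and of the 6 called lower before, 1 passed it.

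The genes whose pattern over the 9 libraries was most like that of CAFS_CommonC_G_090852, by Pearson correlation of log2(scaled FPKM + 1) among 21238 other genes, were CAFS_CommonC_G_009563 (r = 0.963) and CAFS_CommonC_G_059148 (r = 0.942). Neither is a member. The first stood at 5.61 and 7.45 scaled FPKM in mixed-diet libraries 1 and 2, at 1.66 in library 3, and between 2.89 and 4.51 on the single diets. The second stood at 5.79 and 7.07, at 2.99, and between 3.56 and 5.29. Both had mixed-diet libraries 1 and 2 highest and library 3 lowest, as CAFS_CommonC_G_090852 did, but the order of their single-diet libraries differed from its own. Over the 8 libraries without mixed-diet library 3 the correlations were 0.928 and 0.921. Both genes were picked for their correlation over these same libraries. The shared order and the correlations thus follow largely from that choice and are a description, no evidence of a link.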

How the data were processed

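The deposited values are FPKM of 1 liver library a file, per the file headers. Per the submitters' processing notes, HTSeq 0.6.0 was among the tools. Aligner, genome build, annotation and strand: not given in the sources used here. Thus near-identical copies, overlapping and antisense genes cannot be told apart.

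Libraries were grouped by the diet in their labels, which give 3 repetitions per diet, while the design text speaks of duplicates. The members and lists were chosen with earlier results of these data known.

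Low FPKM values step by what 1 read is worth, which gave each library's total and the lengths of 42996 genes (whole reads within 0.02). These steps were tested on simulated data, as was the fit. No 2 libraries of a diet were duplicates (the chi-square of their reads was 36.4 or more per degree of freedom).

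limma 3.58.1 (R 4.3.3) was run on log2(scaled FPKM + 1) with trend and robust options, two-sided, with Benjamini-Hochberg adjustment and a threshold of 0.05, over genes that reached 1 FPKM in 3 libraries or more. One fit used all 9 libraries with mixed-diet library 3 as a mean of its own. The other used 8 libraries. Ratios carry exact 95% intervals from 2 read counts, and shares exact binomial ones. Genes named by rule were the 2 largest ratios, the 2 most abundant members, those beside the threshold, the 2 extremes each way in mixed-diet library 3, and the 2 genes most like the first. Other IDs, the pair and the tiers at 10 and 50 scaled FPKM were chosen after the values were seen. Alternatives were other scalings, thresholds, pseudocount, filters, a replicate block, limma-voom and each library left out. Gene lists and cell type markers needed names and were not used.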

Additional observations from a re-analysis of the deposited data

How the results depend on the processing

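The number of genes meeting the rule was 35. It was 23 in FPKM as deposited, 112 at the lower fold tried, 7 at a fold of 2, 55 at a level of 1 and 16 at a level of 10, and 7 when mixed-diet library 3 was also required, a setting chosen after seeing the data. With each of the 8 libraries left out it ran from 31 to 354. In mixed-diet library 3, the 11 members above the single diets became 21 in FPKM as deposited (61.2% of genes tested), and the 10 below became 16 with TMM factors (32.6%). With each library left out these counts ran from 11 to 12 and from 10 to 15. Members called higher in that library were 5, with 12 in FPKM as deposited (36.9% of genes) and 3 of 19 tested when 1 FPKM was required in every library (13.9% of genes). There 1 was called lower in place of 6 (10.5% of genes), since that filter removes members near 0 in mixed-diet library 3. With each of the 8 libraries left out, the median difference of mixed-diet library 3 from the single diets stayed near its main value. It ran from -0.22 to -0.17 over the members and from 0.13 to 0.17 over all genes. The difference of CAFS_CommonC_G_046094 turned from -0.32 to 0.29 in FPKM as deposited, a setting that leaves out the division by the library factors. The factor of mixed-diet library 3 was 1.90, and the gene stood there at 2.54 FPKM as deposited and 1.34 scaled. Between duckweed and earthworm 0 members were called in all 17 alternatives (limma and limma-voom). Over all genes 0 were called too, except without earthworm library 3, with 3 higher and 9 lower of 19206. The rule had removed genes with a 2-fold difference without overlap, so the members' count was also partly set by it. Correlations of deviations between libraries with the same replicate number ran from -0.405 to 0.054. A low or negative correlation across genes cannot show whether the numbers pair the samples. With the replicate block 0 members, and 0 of 20105 genes, were called between duckweed and earthworm (limma). Members with under 100 reads in the lower mixed-diet library, 9 of 35, limit what the ratios show.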
